A study of Arabidopsis thaliana with 4 samples.

Results

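Described here are 10 genes of the sulphur deficiency response, taken by gene identifier from the 33602 genes measured: the LSU (RESPONSE TO LOW SULFUR) genes LSU1 to LSU4, the adenosine 5'-phosphosulphate reductase genes APR1 to APR3, the SULPHUR DEFICIENCY-INDUCED genes SDI1 and SDI2, and the beta-glucosidase gene BGLU28. They were chosen with their values in these same libraries known, so their differences between genotypes are given as a description, without a test. All 10 reached a mean of 1 TPM (a transcript level scaled for gene length and to a fixed total per library) over the 4 libraries. RNA came from guard cells sorted by fluorescence from protoplasts of Arabidopsis thaliana shoots at 12 days post germination. Wild type (WT) plants were compared with fama-1 mutants carrying FAMAp:FAMA-LGK, in which the FAMA promoter drives a version of FAMA, a bHLH factor of guard cell fate, changed in its binding motif for the retinoblastoma-related protein. The series calls the first cells fully differentiated and the second reprogrammed, and each genotype had 2 libraries. WT plants carried neither the mutation nor the transgene, so their effects cannot be told apart, and the sources used here do not say how many transgenic lines or which sort marker were used.

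Plants take up sulphate through SULTR transporters and activate it to adenosine 5'-phosphosulphate. APR enzymes in the plastid reduce this compound to sulphite in a step that sets much of the flux, and sulphite reductase makes the sulphide that is joined to O-acetylserine to give cysteine, from which glutathione is made. When sulphur is short, the transcription factor SLIM1 drives uptake genes and genes that save sulphur, and the LSU, SDI, APR3 and BGLU28 transcripts are among those used to mark this state. In guard cells, cysteine also supplies the sulphur of the molybdenum cofactor used in the last step of abscisic acid synthesis.

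By their positions in the RefSeq assembly TAIR10.1, the genes are LSU1 (AT3G49580, chr3:18374908-18375940), LSU2 (AT5G24660, chr5:8443279-8444101), LSU3 (AT3G49570, chr3:18372404-18373147), LSU4 (AT5G24655, chr5:8440601-8441364), APR1 (AT4G04610, chr4:2324878-2327064), APR2 (AT1G62180, chr1:22975530-22977885), APR3 (AT4G21990, chr4:11657008-11659167), SDI1 (AT5G48850, chr5:19805437-19807853), SDI2 (AT1G04770, chr1:1336274-1337849) and BGLU28 (AT2G44460, chr2:18346306-18350026). LSU1 and LSU3 are neighbours on chromosome 3, with 1760 bases between them, and LSU4 and LSU2 are neighbours on chromosome 5, with 1914 bases between them and no other annotated gene. The 250 bases before the annotated start of each LSU gene are shown because the members of this family differed in how far apart the genotypes were. They are from the RefSeq assembly TAIR10.1, read 5' to 3' on the gene's strand, with matches to GAGAC, the core of a sulphur-responsive element described in SULTR1;1, in capitals on either strand (GTCTC on the opposite strand).
LSU1 (chr3:18375941-18376190, minus strand): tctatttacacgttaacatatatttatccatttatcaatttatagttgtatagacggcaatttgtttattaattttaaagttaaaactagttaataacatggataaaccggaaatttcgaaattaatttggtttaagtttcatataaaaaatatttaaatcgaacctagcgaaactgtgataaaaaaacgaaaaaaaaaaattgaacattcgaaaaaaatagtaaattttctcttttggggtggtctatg
LSU2 (chr5:8444102-8444351, minus strand): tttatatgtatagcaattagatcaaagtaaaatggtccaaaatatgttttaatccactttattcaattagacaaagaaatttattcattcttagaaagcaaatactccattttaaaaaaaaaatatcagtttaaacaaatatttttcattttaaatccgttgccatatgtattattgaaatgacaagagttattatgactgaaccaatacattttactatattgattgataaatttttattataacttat
LSU3 (chr3:18373148-18373397, minus strand): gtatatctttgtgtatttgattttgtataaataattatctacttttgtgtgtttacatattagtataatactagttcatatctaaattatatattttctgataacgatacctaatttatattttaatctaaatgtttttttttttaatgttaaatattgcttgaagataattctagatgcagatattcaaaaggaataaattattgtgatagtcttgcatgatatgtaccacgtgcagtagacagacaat
LSU4 (chr5:8441365-8441614, minus strand): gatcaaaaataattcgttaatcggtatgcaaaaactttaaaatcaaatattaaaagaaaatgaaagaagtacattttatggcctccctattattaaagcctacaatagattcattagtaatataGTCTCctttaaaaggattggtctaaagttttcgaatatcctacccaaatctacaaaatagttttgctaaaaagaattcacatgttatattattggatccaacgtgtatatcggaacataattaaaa
LSU4 had 1 match, 122 bases before its start, and the other LSU genes had none in this window. Among all 10 genes 3 held the motif, the others being SDI1, with a match 19 bases before its start, and BGLU28, with a match 111 bases before it. Of 27443 promoters of protein-coding genes on the nuclear chromosomes 25.8% held it in the same window, so the share among the 10 genes was near that of promoters at large. A match describes letters only.

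The coding sequences of neighbours were the most alike within the family, at 87.0% identity for LSU2 and LSU4 and 80.7% for LSU1 and LSU3. The longest identical run of aligned coding bases was 30 bases for LSU2 and LSU4 and 23 bases for LSU1 and LSU3. In the APR family APR1 and APR3 were 80.1% identical, with a longest run of 41 bases, and SDI1 and SDI2 were 62.4% identical. No stretch of 50 exon bases of any of the 10 genes occurred elsewhere in the assembly, so reads of that length or longer would be told apart between the members if matched exactly. How long the reads were is not stated in the labels.

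For a gene of 1000 bases, 1 read was worth 0.0830 to 0.0960 TPM in these libraries. Organelle genes took 25.3% to 30.8% of TPM and nuclear ribosomal RNA 22.3% to 33.0%, the highest share being that of FAMA-LGK replicate 1. All 8 guard cell markers were measured, 4 lower and 1 higher in FAMA-LGK by limma's test. Over all genes tested limma called 6.14% lower and 6.45% higher (adjusted p threshold 0.05). The markers, FAMA included, summed to 398 and 378 TPM in WT against 269 and 254 TPM in FAMA-LGK. GC1 alone fell by about as much as the sum, from 133 and 114 TPM in WT to 1.13 and 2.09 TPM in FAMA-LGK. The sum therefore does not show a fall shared by the markers. The channel gene GORK was at 37.3 and 46.8 TPM in WT and at 0.436 and 1.47 TPM in FAMA-LGK. The transcription factor gene MYB60 was the marker called higher, at 35.6 and 25.6 TPM in WT against 114 and 98.5 TPM (limma adjusted p = 0.00112), and the kinase gene OST1 was not called, at 40.6 and 42.0 TPM against 28.2 and 45.6 TPM. The guard cell markers therefore did not move in 1 direction. FAMA itself was at 66.1 and 65.6 TPM in WT and at 94.3 and 81.2 TPM in FAMA-LGK, where reads of the mutant gene and of the transgene share 1 value. Phloem and xylem markers reached at most 1.28 TPM in any library. The 5 epidermis markers summed to 198 and 150 TPM in WT and to 443 and 396 TPM in FAMA-LGK, with 4 of 5 higher by limma's test. The 6 mesophyll markers summed to 512 and 559 TPM in WT and to 411 and 474 TPM in FAMA-LGK, with 1 of 6 lower. The part of these cell types in the differences below was not tested.

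WT levels ran from about 10 TPM for SDI1 to over 1000 TPM for APR3, and the genotypes were furthest apart in BGLU28, LSU4 and LSU1, which were lower in FAMA-LGK. In 9 of the 10 genes both WT libraries lay above both FAMA-LGK libraries, SDI2 being the exception. This order was found in 25.7% of the 15143 genes that reached the minimum, and nothing is read from the count, since the genes were chosen on these values. The median difference of the 10 genes in log2(TPM + 1), FAMA-LGK minus WT, was -1.53, against 0.06 over all genes tested. Values per gene are for sorted cells in bulk, in which fewer cells of a type and less RNA per cell cannot be told apart.

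**Figure D1:**
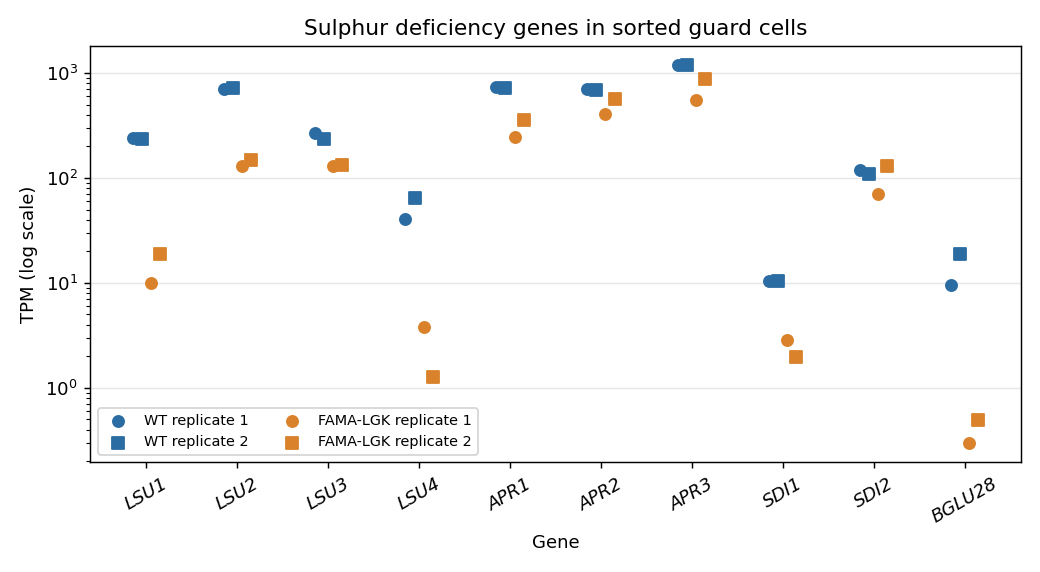
TPM of the 10 sulphur deficiency genes (log axis) in each library, circles for replicate 1 and squares for replicate 2, blue for WT and orange for FAMA-LGK. All genes except SDI2 had both blue points above both orange points, and the gap was widest for BGLU28, LSU4 and LSU1.

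LSU genes encode small coiled-coil proteins found in plants only, which bind many other proteins. LSU2 was the highest of the family in WT, at 708 and 716 TPM, and was at 130 and 147 TPM in FAMA-LGK. The difference was -2.35 in log2(TPM + 1), with a standard error (SE) of 0.21. Each SE here and below is limma's moderated one, which draws a gene's variance toward that of genes at like levels. The WT libraries lay close together and far above the FAMA-LGK ones. LSU1 was at 242 and 234 TPM in WT and at 10.04 and 18.7 TPM in FAMA-LGK, a difference of -4.02 (SE 0.27). The ratio of mean TPM was 16.6, and this difference ranked 19 from the lowest of all genes tested. LSU3, next to LSU1 on the chromosome, was at 268 and 237 TPM in WT and at 129 and 133 TPM in FAMA-LGK, a difference of -0.93 (SE 0.20). LSU1 and LSU3 were thus at like levels in WT, whereas in FAMA-LGK both LSU3 values exceeded both LSU1 values. LSU4 was the lowest of the family, at 40.6 and 64.3 TPM in WT and at 3.84 and 1.27 TPM in FAMA-LGK, about 36 and 12 reads, a difference of -3.97 (SE 0.38). The neighbours LSU2 and LSU4 therefore had mean TPM ratios of 5.13 and 20.5.

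Together the LSU genes held 1258 and 1252 TPM in WT and 273.5 and 301 TPM in FAMA-LGK. The make-up of this sum differed between the genotypes by more than between replicates. The part of LSU3 was 21.3% and 18.97% in the WT libraries against 47.3% and 44.4% in the FAMA-LGK ones. That of LSU1 was 19.2% and 18.7% against 3.67% and 6.22%. LSU2 shifted less, from 56.2% and 57.2% to 47.6% and 48.95%, and LSU4 was 3.22% and 5.14% against 1.40% and 0.424%.

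APR genes encode the reductases that turn activated sulphate into sulphite. APR3 had the highest level of the 10 genes, at 1196 and 1187 TPM in WT and at 550 and 882 TPM in FAMA-LGK, a difference of -0.77 in log2(TPM + 1) (SE 0.28). APR1 was at 732 and 727 TPM in WT and at 244 and 360 TPM in FAMA-LGK, a difference of -1.30 (SE 0.25). APR2, which carries most of the activity in leaves, was at 707 and 687 TPM in WT and at 404 and 561 TPM in FAMA-LGK, a difference of -0.55 (SE 0.24). The WT libraries differed little in all 3 genes, while FAMA-LGK replicate 2 was above replicate 1 in each. Without FAMA-LGK replicate 1 the differences were -0.43 for APR3, -1.02 for APR1 and -0.31 for APR2, and without FAMA-LGK replicate 2 they were -1.12, -1.57 and -0.78. With rRNA and organelle genes taken out before scaling, APR2 was at -0.35, APR3 at -0.58 and APR1 at -1.10.

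The APR sum was 2635 and 2602 TPM in WT and 1198 and 1803 TPM in FAMA-LGK. Shares within the family moved less than in the LSU family. APR3 held 45.4% and 45.6% in the WT libraries against 45.9% and 48.9% in the FAMA-LGK ones, APR1 27.8% and 27.9% against 20.4% and 19.97%, and APR2 26.8% and 26.4% against 33.7% and 31.1%. An RNA gene on the opposite strand, not analysed here, covers 33.2% of the span of APR2, and the protein-coding gene that overlaps APR2 was at no more than 0.167 TPM in any library.

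**Figure D2:**
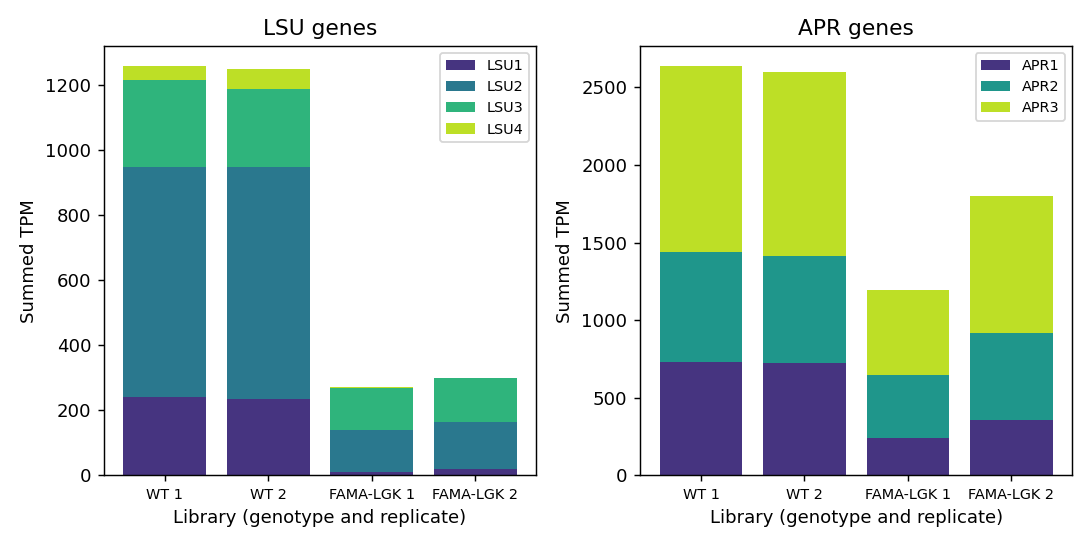
Stacked bars of TPM per library for the LSU genes (left) and the APR genes (right), with bars starting at 0. The LSU sum was 1258 and 1252 TPM in WT and 273.5 and 301 TPM in FAMA-LGK, with LSU3 taking a larger part of the smaller sum, while the APR sum was 2635 and 2602 TPM in WT and 1198 and 1803 TPM in FAMA-LGK.

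SDI1 and SDI2 encode proteins that hold back glucosinolate synthesis when sulphur is short. SDI1 was low, at 10.5 and 10.4 TPM in WT and at 2.83 and 1.96 TPM in FAMA-LGK, about 33 and 23 reads, a difference of -1.76 (SE 0.30). SDI2 was at 119 and 110 TPM in WT and at 69.9 and 129 TPM in FAMA-LGK, a difference of -0.27 (SE 0.28). The SDI2 values overlapped, since FAMA-LGK replicate 2 was the highest of the 4 libraries and replicate 1 the lowest. Without FAMA-LGK replicate 1 the SDI2 difference was 0.17, and without replicate 2 it was -0.70. It was -0.07 with rRNA and organelle genes taken out before scaling. SDI2 shares 27.3% of its span with a gene on the opposite strand that was at 2.16 to 4.83 TPM.

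BGLU28 encodes a beta-glucosidase that takes sulphur back from glucosinolates. It was at 9.52 and 18.8 TPM in WT and at 0.295 and 0.490 TPM in FAMA-LGK, about 197 and 443 reads against 6 and 10. The difference was -3.38 (SE 0.38) in log2(TPM + 1), and -4.81 with a pseudocount of 0.1, since adding 1 understates changes at low levels. The WT libraries of BGLU28 were far apart from each other, yet both lay well above the FAMA-LGK values.

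**Figure D3:**
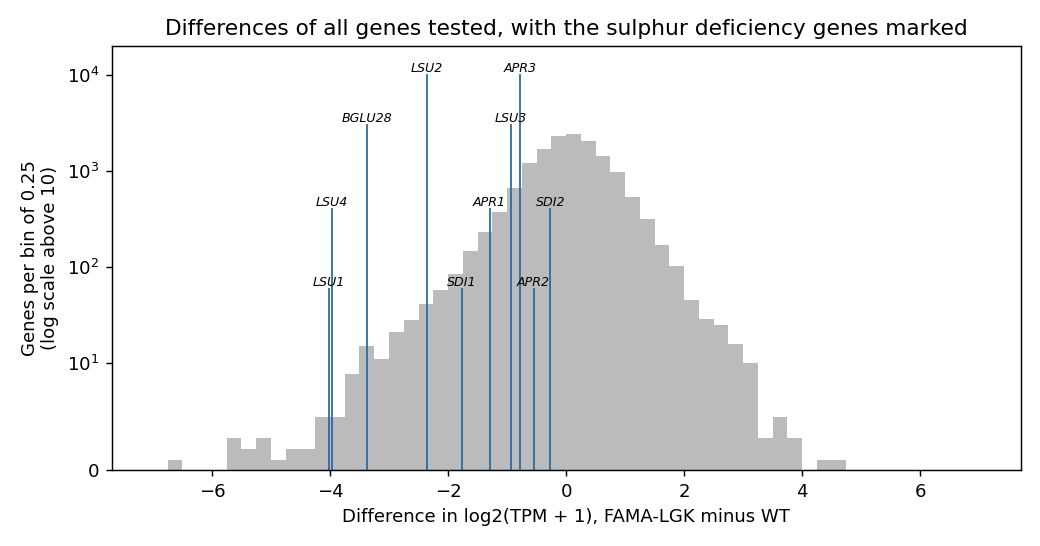
Number of genes per bin of 0.25 in the difference of log2(TPM + 1), FAMA-LGK minus WT, for all 15143 genes tested, with a line at each sulphur deficiency gene (line heights only separate the names). LSU1, LSU4 and BGLU28 lie in the far lower tail, at ranks 19, 20 and 38 from the lowest, and SDI2 lies near the centre.

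The rest of the pathway was described from 60 genes in 6 lists, of which 35 had a mean of at least 1 TPM. Across all genes limma called 12.6%, 6.45% as higher and 6.14% as lower in FAMA-LGK (adjusted p threshold 0.05). Of the 35 pathway genes 8 fell, 4 rose and 23 were not called, and the lists were drawn up with earlier results of these libraries known. Each call below rests on the spread between both WT libraries, since with either left out only the FAMA-LGK pair gives a spread. All 12 called genes kept the sign of their difference in those fits. SHM7 was at -1.48 without WT replicate 1 and -1.48 without WT replicate 2, while SOT16 moved more, to 2.21 and 1.03. Without the minimum of 1 TPM limma called 0 pathway genes, with 19 of 53 at an unadjusted p under 0.05. Without a variance trend 6 of the 12 calls were lost, those of SULTR1;2 (limma adjusted p = 0.0788), SIR (0.108), SERAT2;1 (0.0731), SERAT2;2 (0.0565), GGCT2;1 (0.0820) and SOT16 (0.0669).

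Of 12 sulphate transporter genes 3 passed the minimum. SULTR1;2, a high-affinity transporter, fell from 36.0 and 31.7 TPM to 19.2 and 14.7 TPM (difference -0.97 in log2(TPM + 1), SE 0.24, limma adjusted p = 0.0259). The other 2 were not called. SULTR1;1, whose transcript is a classic marker of sulphur shortage in roots, was listed at 0 TPM in all 4 libraries. SULTR1;2 missed the threshold when FAMA-LGK replicate 2 was left out (limma adjusted p = 0.0776) or when rRNA and organelle genes were taken out before scaling (0.0780).

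Of 14 measured genes from sulphate activation to cysteine and glutathione 4 fell, 0 rose and 10 were not called. Of these 14, 13 had differences below 0 (median -0.60), against 6953 of all 15143 genes tested. GSH1, the rate-limiting enzyme of glutathione synthesis, fell from 39.6 and 36.1 TPM to 11.4 and 16.0 TPM (difference -1.42, limma adjusted p = 0.0052). SERAT2;2, a mitochondrial serine acetyltransferase, fell from 126 and 110 TPM to 40.4 and 61.6 TPM (-1.22, adjusted p = 0.0109). SERAT2;1, the plastid form, fell from 475 and 409 TPM to 249 and 196 TPM (-0.995, adjusted p = 0.0190). The sulphite reductase gene SIR, in a single copy, fell from 74.6 and 84.5 TPM to 41.0 and 48.7 TPM (-0.82, adjusted p = 0.0326). In these 4 genes both WT libraries lay above both FAMA-LGK ones, an order found in 25.7% of all genes tested. The calls rest on these same values, so the order adds no support to them. SIR had an adjusted p of 0.0898 when FAMA-LGK replicate 1 was left out and 0.0657 after that removal of rRNA and organelle genes. SERAT2;1 had 0.0606 when FAMA-LGK replicate 2 was left out and 0.0842 after the removal.

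Among 4 other genes of the sulphur deficiency response 2 fell and 2 were not called. BGLU30, not called, was at 29.4 and 23.5 TPM in WT and at 33.1 and 35.0 TPM in FAMA-LGK. Its difference was above 0 (0.36, SE 0.22, limma adjusted p = 0.324). SHM7, a serine hydroxymethyltransferase-like protein, fell from 315 and 314 TPM to 92.1 and 136 TPM (difference -1.48, limma adjusted p = 0.00347). GGCT2;1, which breaks down glutathione, fell from 16.3 and 19.8 TPM to 5.77 and 10.2 TPM (-1.12, adjusted p = 0.0374). Leaving out FAMA-LGK replicate 1 took its adjusted p to 0.129. The transcription factor gene SLIM1 was at 163 and 118 TPM in WT and at 85.9 and 80.4 TPM in FAMA-LGK, without a call (difference -0.73, SE 0.22, limma adjusted p = 0.0589). SLIM1 passed the threshold under median-ratio scaling (limma adjusted p = 0.0280) and with replicate number added to the fit (0.0274). The latter fit has 1 residual degree of freedom, and whether replicate numbers pair the samples is not known. Its lowest limma adjusted p over all genes was 6.9e-139, against 7.6e-07 in the main fit. SLIM1 was further from the threshold with rRNA and organelle genes taken out (0.167) and without a variance trend (0.154).

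The sulphation branch went both ways. Of 6 measured genes 1 fell, 2 rose and 3 were not called. The APS kinase gene APK1 fell from 61.0 and 74.7 TPM to 27.4 and 31.7 TPM (difference -1.17, limma adjusted p = 0.00791). APK2, another plastid APS kinase, rose from 0.0758 and 0.400 TPM to 2.47 and 3.23 TPM (1.64, adjusted p = 0.0287), on about 1 and 6 reads against 32 and 42. SOT16, which sulphates indolic glucosinolates, rose from 3.07 and 0.799 TPM to 9.10 and 5.88 TPM (1.62, adjusted p = 0.0372). Its values stood for about 44 and 13 reads in WT against 128 and 83 in FAMA-LGK. APK2 was at 0.0633 without FAMA-LGK replicate 2, and SOT16 at 0.154 and 0.0563 without FAMA-LGK replicates 1 and 2. With a pseudocount of 0.1 the differences were larger, at 3.30 for APK2 and 2.13 for SOT16, while the limma adjusted p lay just above the threshold, at 0.0516 and 0.0533.

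Of 17 genes of glucosinolate synthesis 13 lay below the minimum, and of the 4 measured ones 2 rose, 0 fell and 2 were not called. CYP83B1, an enzyme of the indolic branch, rose from 0.486 and 0.238 TPM to 4.73 and 5.42 TPM (difference 2.16, limma adjusted p = 0.00516), with a difference of 3.54 at a pseudocount of 0.1. Its values stood for about 9 and 5 reads in WT against 86 and 99 in FAMA-LGK. SUR1, the C-S lyase shared by the branches, rose from 1.83 and 1.33 TPM to 6.58 and 5.30 TPM (1.43, adjusted p = 0.0227). Leaving out FAMA-LGK replicate 1 took its adjusted p to 0.0875. Among 4 genes of the methionine branch limma called 0, with 1 at an unadjusted p under 0.05, the methionine synthase gene MS1 (21.9 and 18.1 TPM in WT, 33.4 and 33.7 TPM in FAMA-LGK, limma adjusted p = 0.0611). MS1 passed the threshold with rRNA and organelle genes taken out (0.0251). Of 6 measured wounding and jasmonate genes, which can respond to protoplasting, 3 rose and 1 fell (JAZ1), and their part in these differences was not tested.

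**Figure D4:**
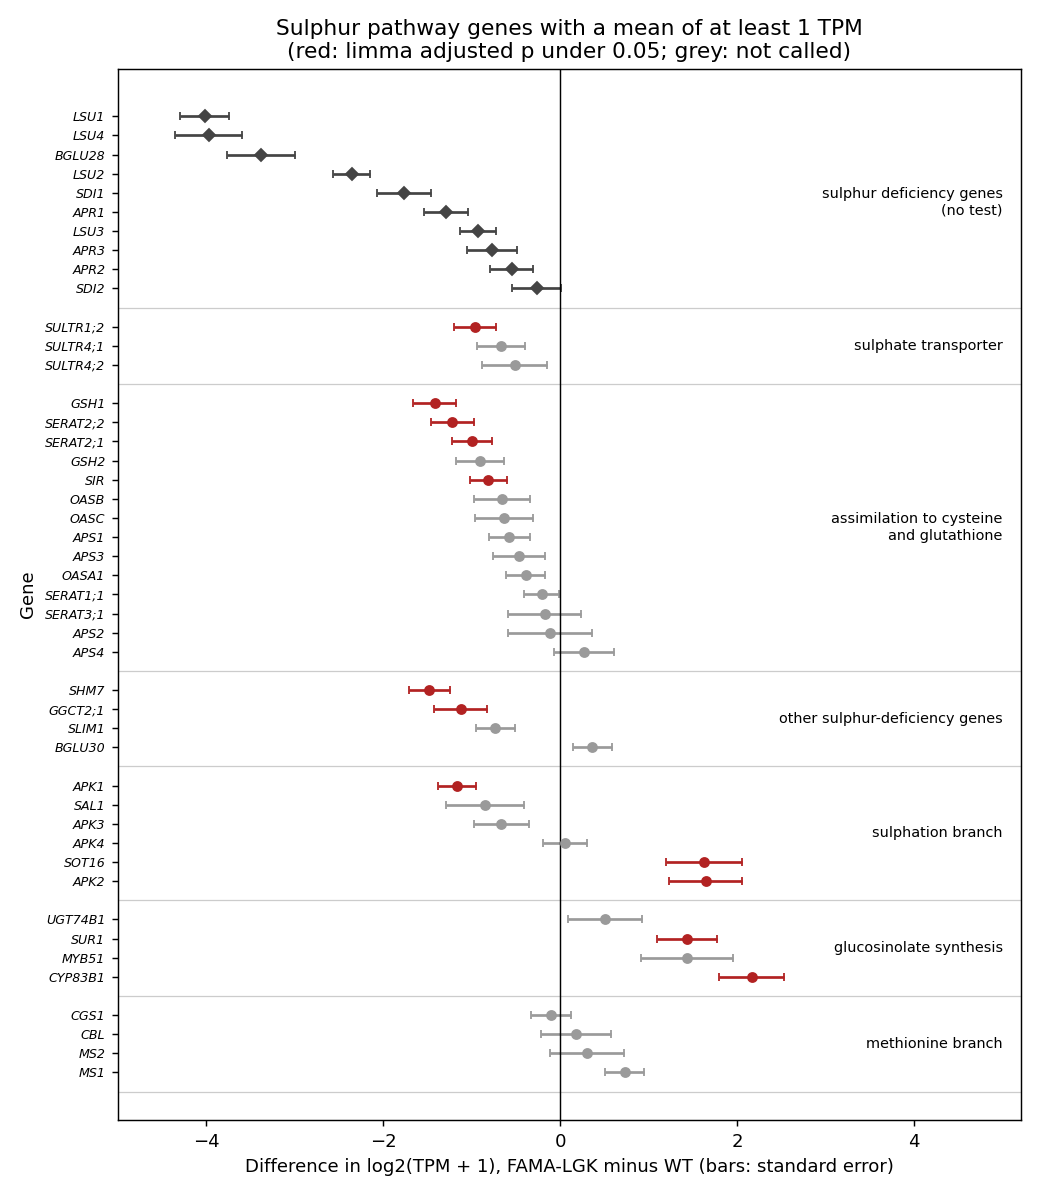
Difference in log2(TPM + 1), FAMA-LGK minus WT, with its standard error, for the 10 sulphur deficiency genes (diamonds, no test) and the 35 measured pathway genes (circles, red where called by limma and grey where not). The 8 red circles left of 0 lie in the transport, assimilation, deficiency and sulphation lists, and the 4 red ones right of 0 are APK2, SOT16, SUR1 and CYP83B1.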

How the data were processed

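Guard cell RNA was measured in 4 libraries, 2 of each genotype, made with low-input kits per the labels' protocols. The authors deposited 1 table of TPM values for 33602 genes, made from read counts per gene with HTSeq, per the labels. The submitters' processing notes name CASAVA 1.8.2, Bowtie2, HTSeq and the TAIR10 build. They state no gene lengths, strand setting or rule for reads with several matches. TPM is scaled to one total over all genes, organelle and ribosomal RNA included, so a shift in those moves every other value.

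For the test, log2(TPM + 1) was fitted on genotype by limma 3.58.1 (R 4.3.3; two-sided; eBayes with a mean-variance trend; Benjamini-Hochberg adjustment over the 15143 genes whose mean reached 1 TPM; threshold 0.05). The fit was also run on simulated data with normal noise and fewer changed genes than were called here. That run does not vouch for these calls. An exact permutation test of 2 against 2 samples gives a two-sided p of 0.333 at the least, so none was used. The labels do not say whether replicates are separate plantings, and p-values cover only the spread between these libraries, which may be technical. The replicate numbers shared by the genotypes are not said to pair them.

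TPM keeps no library size. The most frequent product of TPM and exon length near its lowest values gave the worth of 1 read. Reads of a gene were taken at the length nearest the annotated one that made all 4 values whole. The tolerance was 0.05 and widened with the read number, and where no length fitted the annotated one was used. For LSU4 the length taken was 899 bases, above its annotated span of 764 bases, so its reads may be overstated. Read numbers are approximate and cover counting error only. Names, positions and sequences came from RefSeq's TAIR10.1 by gene identifier (32835 of 33602 matched); the deposited table holds no coordinates to compare with it. Promoters were the 250 bases before the annotated gene start, and coding sequences were aligned globally with biopython 1.88. The members and lists were chosen with earlier results of these data known. Named were all members, each called pathway gene, the smallest p of a list without a call, SLIM1 and SIR. The genes SULTR1;1, BGLU30, GC1, GORK, MYB60, OST1 and JAZ1 were named after their values were seen. Tables and figures used Python 3.11.15, numpy 2.4.6, pandas 2.3.3 and matplotlib 3.10.9.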

Additional observations from a re-analysis of the deposited data

How the results depend on the processing

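The median difference of the 10 members stayed between -1.70 and -1.44 under all alternatives, and each member except SDI2 kept its sign in all of them. Taking out rRNA and organelle genes shifted the all-gene median to 0.24 from 0.06 and called 1504 genes higher, 67.1% of calls against 51.2%, and 5 pathway genes lower. Without a filter limma called 245 genes higher and 266 lower, and 0 pathway genes either way, with 19 of 53 at an unadjusted p under 0.05. A pseudocount of 0.1 left 2 pathway genes higher, and a minimum of 5 TPM called 1 higher (MS1) of 21 tested, since the 4 higher genes lie below it. Without a variance trend 595 genes were lower, and 3 pathway genes lower. Under median-ratio scaling 46.1% of the 2270 called genes were higher. Leaving out 1 library gave 0 to 816 genes higher and 0 to 1074 lower, and 0 to 3 pathway genes higher and 0 to 6 lower. The 0 calls came without either WT library, where only the FAMA-LGK pair gives a spread between replicates. SDI2 ranged from -0.70 to 0.17 over the left-out libraries, the latter without FAMA-LGK replicate 1. The replicate block, with 1 residual degree of freedom, called 1479 genes higher and 1365 lower; the differences between replicates 1 and 2 of the genotypes correlated at 0.08 across genes, and whether the numbers pair the samples is not known. The causes of these changes were not tested, apart from the fewer genes or samples that a setting itself brings.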
